A study of Mus musculus with 10 samples.

Results

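The subject is a set of 10 iron genes: the transferrin receptor gene Tfrc and 9 others that take up, reduce, store, export or sense iron (Tfr2, Trf, Slc11a2, Slc40a1, Fth1, Ftl1, Ireb2, Aco1 and Steap3). They were found by mouse symbol among the 54532 genes of the count table, and all 10 passed the filter on low counts. Tfrc was chosen by its measured level, which was lower in the mutant genotype in these same counts, so that difference is described here and not tested. The other 9 were listed by function. The question was whether Tfrc differed together with the iron genes or, as a gene used heavily by red cell precursors, with the blood content of the tissue.

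RNA was sequenced from the cochlea, the organ of hearing, taken from female pups at postnatal day 1. The control group (Esrrgfl/fl) had both copies of Esrrg, which encodes estrogen-related receptor gamma, flanked by loxP sites. The conditional knockout group (Esrrgfl/fl;Sox10-Cre, cKO) had the same floxed alleles and the Cre recombinase under control of Sox10 sequence, which is active in otic epithelium, glia and melanocytes. There were 5 animals per group and 1 library per animal, made from the left and right cochlea together once the bony capsule had been taken off. The tissue was a mixture that can include vessels and their blood.

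Cells take up iron mostly as transferrin. Transferrin (Trf) binds the transferrin receptor (Tfrc) at the cell surface, the complex enters an endosome, the reductase Steap3 converts the iron to its ferrous form, and the transporter Slc11a2 (DMT1) moves it into the cytosol. Iron that is not used is stored in ferritin, a shell of heavy (Fth1) and light (Ftl1) chains, or leaves through ferroportin (Slc40a1). The iron regulatory proteins, encoded by Aco1 and Ireb2, bind a hairpin called the iron-responsive element when iron is scarce. Binding in the 5′ UTR blocks translation, as for ferritin, and binding in the 3′ UTR protects Tfrc mRNA from decay. Red cell precursors carry very high levels of the receptor, and dividing cells also depend on it.

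The hairpins are shown because they tie the members to one another at the level of RNA. Sequences were read from the GENCODE M21 transcripts, positions are on GRCm38, and capitals mark the apical loop. The 4 Tfrc hairpins that met the search pattern given below lie in its 3′ UTR on chromosome 16, plus strand, from 32631220 to 32631737. Hairpins that depart from the pattern were not searched for.
Tfrc hairpin 1: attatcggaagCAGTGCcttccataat
Tfrc hairpin 2: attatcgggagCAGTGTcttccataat
Tfrc hairpin 3: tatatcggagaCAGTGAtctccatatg
Tfrc hairpin 4: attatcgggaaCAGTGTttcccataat
Fth1 5′ UTR: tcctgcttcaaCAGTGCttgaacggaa
Ftl1 5′ UTR: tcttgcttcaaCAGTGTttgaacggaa
Slc40a1 5′ UTR: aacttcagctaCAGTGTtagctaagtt

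The Tfrc hairpins stand at 32631220 to 32631246, 32631599 to 32631625, 32631664 to 32631690 and 32631711 to 32631737. The Fth1 hairpin lies on chromosome 19 (plus strand, 9982733 to 9982759), that of Ftl1 on chromosome 7 (minus strand, 45459780 to 45459806) and that of Slc40a1 on chromosome 1 (minus strand, 45925466 to 45925492). The search used the pattern CNNNNNCAGTGN on the transcript strand, where the last base was A, C or T and not G. All 5 pairs of the upper stem and at least 3 of 5 pairs of the lower stem had to form within 27 bases. Among 1 coding transcript each of 21864 genes, 7 genes (0.0320%) had a match in the 5′ UTR and 22 (0.101%) had one in the 3′ UTR. Tfrc was the only gene with more than 1 match in the 3′ UTR (0.00457% of genes). The transcripts searched for Tfr2, Trf, Slc11a2, Ireb2, Aco1 and Steap3 held no match to this pattern. The pattern misses hairpins whose upper stem is not fully paired. Slc11a2 was itself listed among mRNAs with an iron-responsive element, so the lack of a match does not show that it has none.

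Library totals lay between 33.5 and 41.8 M counts (M, mega), and 24160 to 26064 genes were detected per library. Esrrg, the targeted gene, was higher in the cKO-labelled libraries (58.4 ± 6.34 CPM in controls and 89.8 ± 15.2 CPM, SD, n = 5 each, log2 fold change 0.62, SE 0.117, edgeR adjusted p = 0.0259), and it was called again in 3 of 10 fits that each left a library out. It was not called with the replicate number as a block (adjusted p = 0.0562) or by limma on log2(FPKM + 1) (adjusted p = 0.0519). A count over the whole gene cannot tell whether an exon is missing. Because the targeted gene goes against the label, the group is called cKO-labelled throughout, and each direction below depends on that label. Markers of the cochlea were present: the summed level of 10 tested hair cell genes was 279 to 358 CPM in controls and 284 to 370 CPM in the cKO-labelled libraries, and that of 11 supporting cell genes was 2177 to 2999 and 2791 to 3008 CPM. Control 2 stood apart from the other controls for several of the iron genes, and values that it moves most are also given without it.

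Tfrc (ENSMUSG00000022797, GRCm38 chromosome 16, 32608920 to 32632794, plus strand) was lower in every cKO-labelled library than in any control. Its level was 105, 86.3, 95.1, 89.4 and 98.7 CPM (counts scaled to a library of 1000000) in controls 1 to 5. It was 58.9, 47.9, 60.6, 60.8 and 58.7 CPM in cKO 1 to 5. The lowest control and the highest cKO-labelled library thus left a gap, and the spread within each genotype was small. The means were 94.9 ± 7.37 and 57.4 ± 5.35 CPM (SD, n = 5 each), from 3068 to 4493 and 1677 to 2435 counts. The log2 fold change was -0.73 (SE 0.0849, 95% interval -0.91 to -0.54), or -39.5%. It ran from -0.77 without control 2 to -0.67 without cKO 2 over the fits with 1 library left out. In tissue RNA, fewer cells that carry a transcript and less of it per cell cannot be told apart.

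Over all 17937 genes tested, 111 (0.619%) were called at an edgeR quasi-likelihood adjusted p under 0.05, and 510 (2.84%) did not overlap in CPM between genotypes. Of the 9 members other than Tfrc, 0 were called by edgeR, with 1 (Fth1) at an unadjusted p under 0.05, where 9.65% of all tested genes lay. DESeq2 called 0 of the 9 with 2 at an unadjusted p under 0.05, and limma-voom with quality weights called 1, Fth1, also with 2. Their log2 fold changes ran from -0.39 to 0.13, with a median of 0.04 beside -0.01 for all tested genes. Fth1 and Aco1 were the 2 of 9 members without overlap between genotypes.

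**Figure D1:**
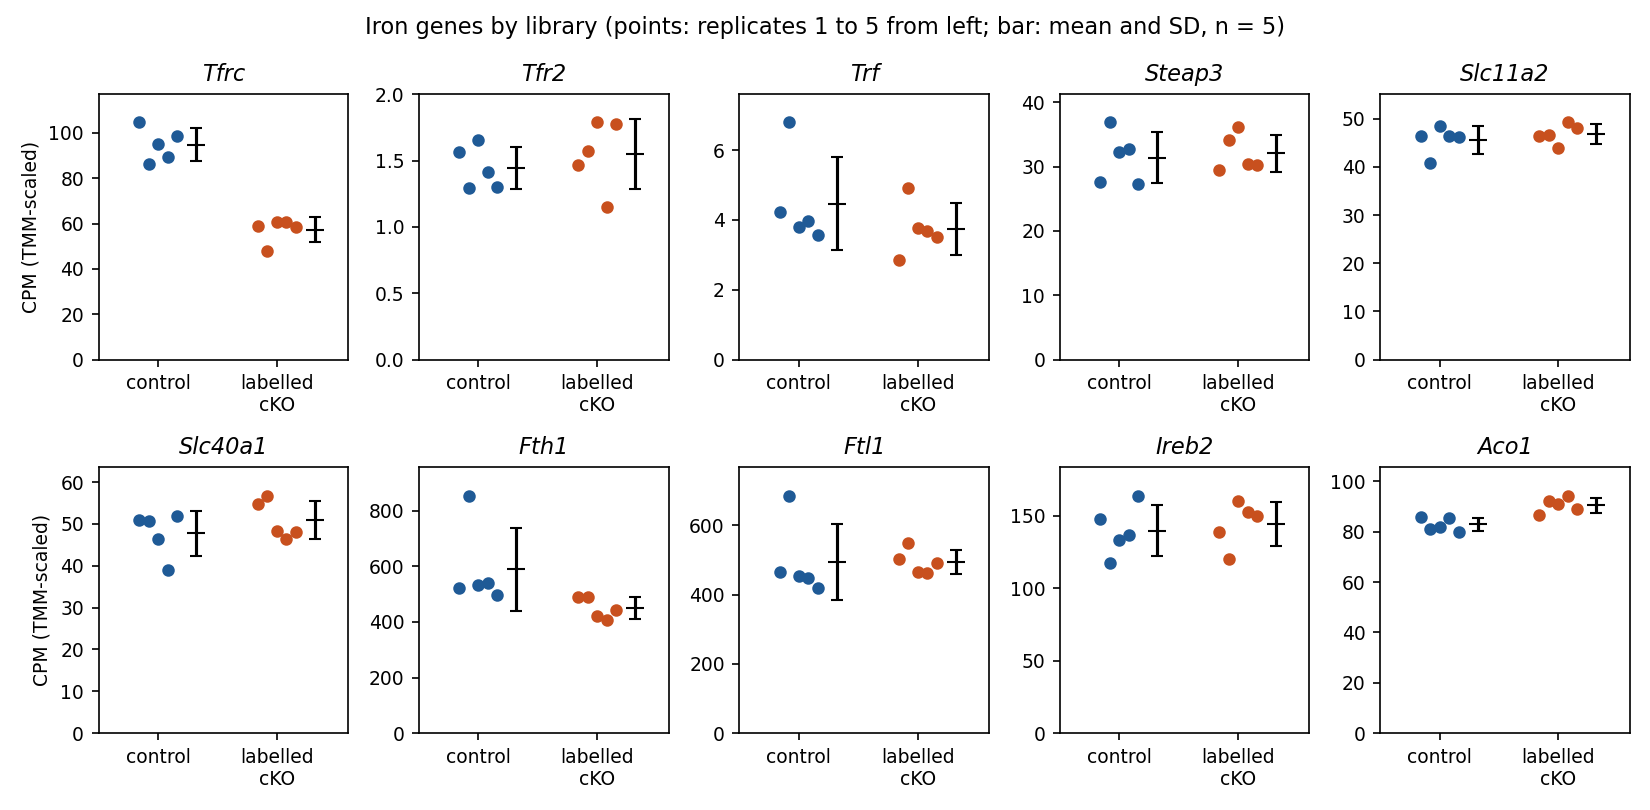
Level of each iron gene in CPM (vertical axis, from 0) in the 5 control libraries and the 5 libraries labelled cKO, with replicates 1 to 5 from left to right and the mean and SD beside them. Tfrc, Fth1 and Aco1 show no overlap between genotypes, and control 2 is the high point for Trf, Fth1 and Ftl1.

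Of the uptake genes beside Tfrc, none passed the test. Trf (chromosome 9, 103204001 to 103230444), the ligand, was a low transcript here. Plasma transferrin comes mostly from the liver. It had 4.22, 6.80, 3.80, 3.96 and 3.56 CPM in controls 1 to 5 and 2.85, 4.92, 3.78, 3.68 and 3.53 CPM in cKO 1 to 5. The groups overlapped, and library 2 was the highest in both. The log2 fold change of Trf was -0.25 (SE 0.198, edgeR adjusted p = 0.698), and -0.06 without control 2. Exons of Trf overlap those of Gm20425 on the same strand.

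Tfr2 (chromosome 5, 137569840 to 137587481) encodes a second transferrin receptor that senses transferrin iron in liver and red cell precursors. It rested on 45 to 72 counts per library and had 1.45 ± 0.159 CPM in controls and 1.55 ± 0.263 CPM in the cKO-labelled libraries (SD, n = 5 each). Its log2 fold change was 0.10 (SE 0.185, edgeR adjusted p = 0.878) with a 95% interval from -0.29 to 0.50, and its sign turned with limma-voom (-0.0013), so no direction is read for Tfr2. The FPKM ratio of Tfrc to Tfr2 was 40.3 to 53.1 in controls and 21.4 to 37.1 in the cKO-labelled libraries.

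Steap3 (chromosome 1, 120190757 to 120272705), the endosomal reductase, had 31.4 ± 3.99 and 32.1 ± 2.89 CPM (SD, n = 5 each), so the log2 fold change was 0.03 (SE 0.101, edgeR adjusted p = 0.928). Slc11a2 (chromosome 15, 100387898 to 100425072), the endosomal iron transporter, had 46.5, 40.7, 48.4, 46.4 and 46.3 CPM in controls 1 to 5 and 43.8 to 49.3 CPM in the cKO-labelled libraries. Control 2 was the lowest of all 10 libraries for this gene. Its log2 fold change was 0.04 (SE 0.0733, edgeR adjusted p = 0.888). The 95% intervals were -0.18 to 0.25 for Steap3 and -0.12 to 0.19 for Slc11a2. The sign of both changed when 1 library was left out, and Slc11a2 has exons that overlap Gm5475 on the opposite strand.

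The 2 ferritin chains had unlike fold changes, of which neither passed the edgeR test. Fth1 (chromosome 19, 9980598 to 9985098), the heavy chain with ferroxidase activity, had 521, 854, 533, 538 and 497 CPM in controls 1 to 5. It had 490, 490, 422, 406 and 441 CPM in cKO 1 to 5. Every cKO-labelled library lay below every control, by a narrow margin for control 5, and control 2 was far above the others. The means were 589 ± 149 and 450 ± 38.6 CPM (SD, n = 5 each), so the log2 fold change was -0.39 (SE 0.137, 95% interval -0.68 to -0.093). The edgeR p was 0.0135 and the adjusted p 0.355, which missed the threshold. Without control 2 the log2 fold change was -0.23 and the adjusted p was 0.159. With limma-voom and quality weights it was -0.29 and the adjusted p was 0.0435.

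Ftl1 (chromosome 7, 45457944 to 45459884), the light chain that helps build the iron core, had 466, 686, 452, 448 and 419 CPM in controls 1 to 5 and 502, 550, 465, 462 and 492 CPM in cKO 1 to 5. The means were both 494 CPM, with a log2 fold change within 0.01 of 0 (SE 0.123, 95% interval -0.26 to 0.26). Without control 2, the highest library, the log2 fold change of Ftl1 was 0.14, with an edgeR adjusted p of 0.485, and limma-voom gave 0.10, so no direction is read for it. Its exons overlap Gm10252 on the opposite strand and Gm22133 on the same strand. The pseudogene copies of ferritin genes in the table held at most 124 counts (Ftl1-ps1), beside at least 15605 counts for Ftl1, and how reads were shared among such copies is not given in the sources used here.

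The ratio of heavy to light chain RNA, looked at after the values had been seen, separated the genotypes. Per FPKM, which divides by gene length, Fth1 to Ftl1 was 1.73, 1.93, 1.82, 1.86 and 1.83 in controls 1 to 5. It was 1.51, 1.38, 1.40, 1.36 and 1.39 in cKO 1 to 5. Control 2, whose Fth1 and Ftl1 were both high, lay at 1.93 and so near the other controls. The means were 1.83 ± 0.0704 and 1.41 ± 0.0600 (SD, n = 5 each). Since Fth1 was seen first, the ratio is a description with no test. Its level also depends on the gene lengths used. The deposited FPKM of Fth1 imply a length far below the 3469 bases of its merged GENCODE M21 exons. Those of Ftl1 imply a length near its 1340 bases. The same lengths apply to every library, so the separation of the genotypes and the fold between their ratios do not depend on them. The absolute size of the difference does.

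**Figure D2:**
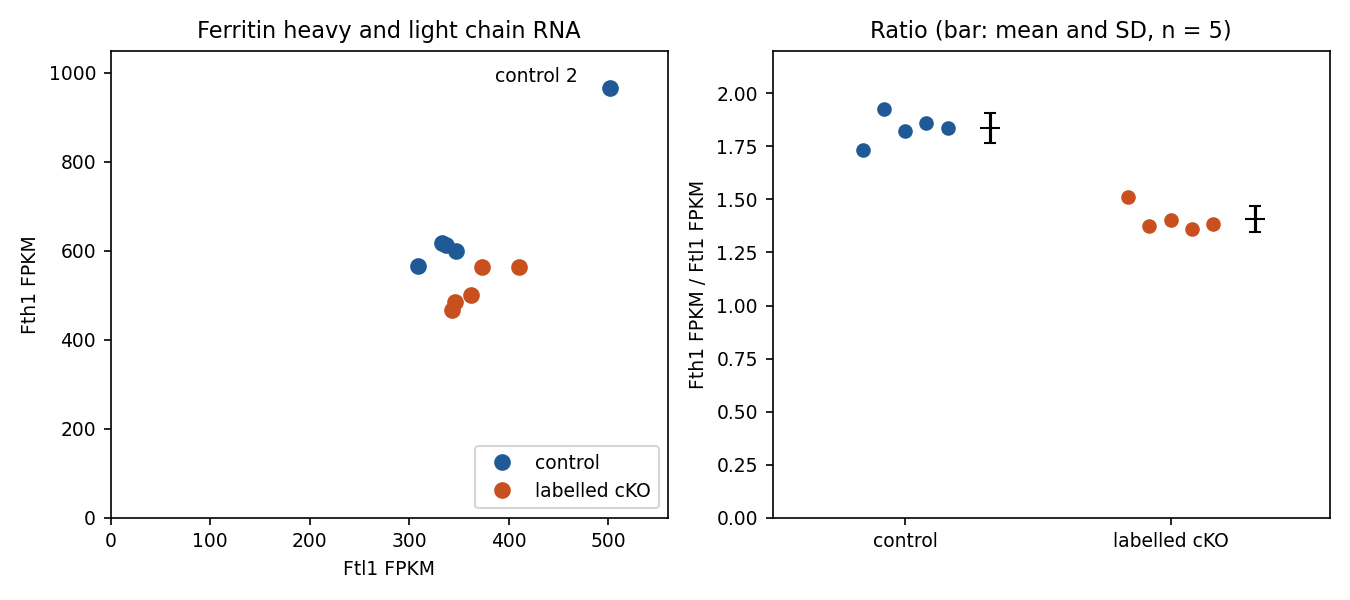
Left, Fth1 FPKM against Ftl1 FPKM in each library, both axes from 0. Right, the ratio of Fth1 to Ftl1 FPKM per library with the mean and SD (n = 5). The controls lie between 1.73 and 1.93 and the cKO-labelled libraries between 1.36 and 1.51, with control 2 high for both chains.

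Export genes did not pass the test. Slc40a1 (ferroportin, chromosome 1, 45908068 to 45926523) had 47.8 ± 5.33 CPM in controls and 50.9 ± 4.55 CPM in the cKO-labelled libraries (SD, n = 5 each), so the log2 fold change was 0.09 (SE 0.0943, edgeR adjusted p = 0.775). Its partners in export are ferroxidases, which load iron onto transferrin. Cp (ceruloplasmin) had 202, 145, 193, 203 and 187 CPM in controls 1 to 5 and 233, 227, 212, 220 and 263 CPM in cKO 1 to 5. Heph (hephaestin) had 67.6 to 89.2 CPM in controls and 90.8 to 108 CPM in the cKO-labelled libraries. Neither overlapped between genotypes, with log2 fold changes of 0.31 (SE 0.0980) and 0.27 (SE 0.0857), but the edgeR adjusted p was 0.272 and 0.274. Without control 2 the log2 fold changes were 0.23 for Cp and 0.21 for Heph. Exons of Cp overlap Hps3 and those of Heph overlap Hsf3, each on the opposite strand. Hamp, the hormone hepcidin that removes ferroportin from the membrane, had 0 to 4 counts per library and Hamp2 had 0 to 2, and neither was tested.

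The sensors, whose proteins bind the hairpins, did not pass the test. Aco1 (iron regulatory protein 1, chromosome 4, 40143081 to 40198338), which is an aconitase when it holds an iron-sulfur cluster, had 86.0, 81.0, 81.8, 85.4 and 80.0 CPM in controls 1 to 5. It had 86.6, 92.0, 91.0, 94.3 and 88.8 CPM in cKO 1 to 5. The genotypes were separate for Aco1 by less than 1 CPM, between control 1 and cKO 1, with means of 82.8 ± 2.67 and 90.6 ± 2.98 CPM (SD, n = 5 each). The log2 fold change was 0.13 (SE 0.0623, 95% interval -0.0053 to 0.26, edgeR adjusted p = 0.538). Ireb2 (iron regulatory protein 2, chromosome 9, 54863789 to 54912530) had 140 ± 17.4 and 144 ± 15.3 CPM, a log2 fold change of 0.05 (SE 0.0994, edgeR adjusted p = 0.903), and the sign turned without control 2. RNA levels of the sensors do not show their binding activity, which is set after translation.

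By deposited FPKM, which divide by gene length, the order of the members was nearly the same in both genotypes. Fth1 stood above Ftl1 only with the short length used for Fth1, not with the 3469 bases of its GENCODE M21 exons. In controls the mean levels were 673 FPKM for Fth1 and 365 FPKM for Ftl1. Far below came 18.3 FPKM for Aco1, 15.2 for Tfrc, 14.6 for Ireb2, 7.13 for Slc11a2, 5.44 for Steap3 and 5.26 for Slc40a1. Trf at 1.33 FPKM and Tfr2 at 0.331 FPKM were the lowest. The ranges of Tfrc and Ireb2, of Slc11a2 and Steap3, and of Steap3 and Slc40a1 overlapped in controls, and these neighbours are not ordered. In the cKO-labelled libraries, Tfrc had a mean of 9.22 FPKM and stood below Ireb2 (15.1 FPKM) in all 5 libraries.

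**Figure D3:**
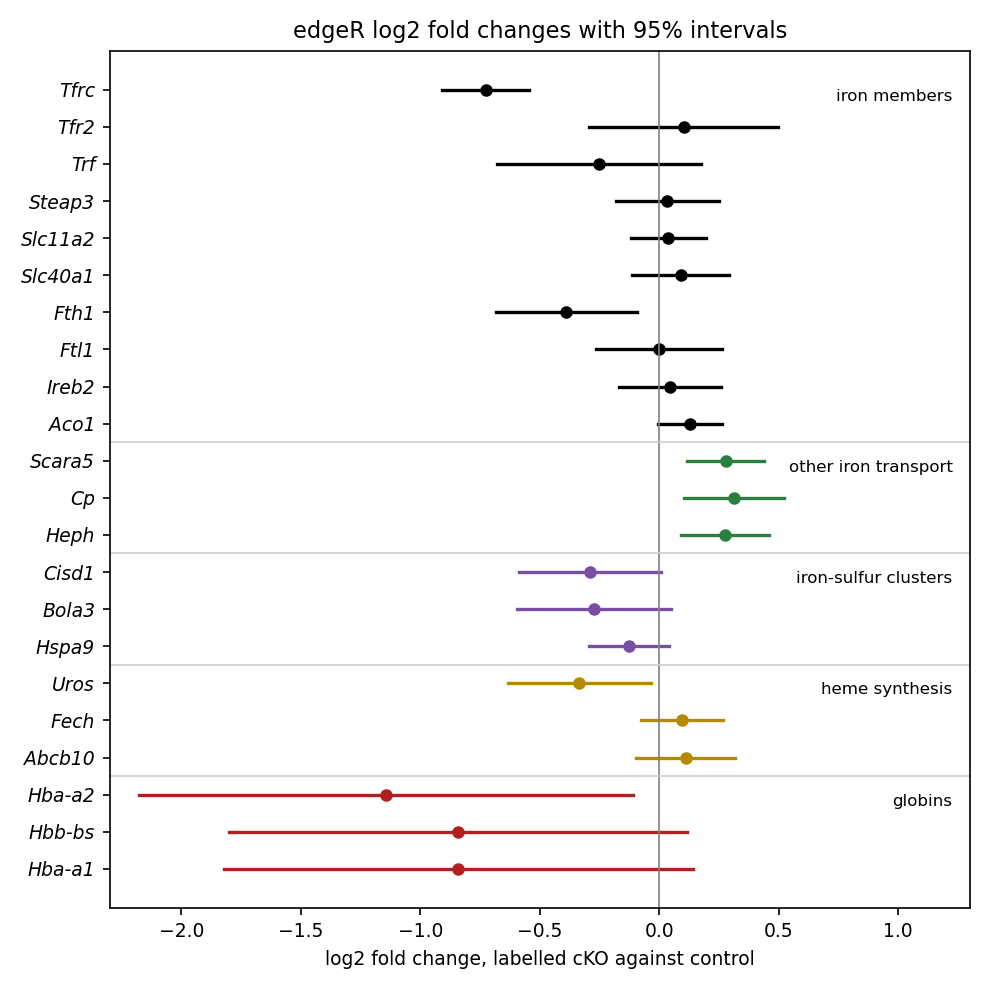
Log2 fold change of the cKO-labelled libraries against controls (horizontal axis) with its 95% interval, for the 10 iron genes and for genes of 4 related lists. Tfrc, chosen for its difference, is drawn as a description at -0.73, the other iron genes lie between -0.39 and 0.13, and the globin intervals are the widest.

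The wider iron pathway was read from lists. Of 37 further genes of iron transport and regulation, 33 passed the filter, of which edgeR called 0 and 5 had an unadjusted p under 0.05. Of the 33, 12 had negative and 21 positive log2 fold changes. Their median was 0.08 on the log2 scale, and 4 of 33 did not overlap between genotypes. Over all tested genes, 9.65% had an unadjusted p under 0.05 by edgeR and 2.84% did not overlap. Scara5, a scavenger receptor that binds ferritin, had the smallest p: 149 to 177 CPM in controls and 189 to 223 CPM in the cKO-labelled libraries, a log2 fold change of 0.28 (SE 0.0750, edgeR adjusted p = 0.165). DESeq2 called Scara5 with an adjusted p of 0.0282 and limma-voom with one of 0.0473. With Cp and Heph it makes up the 3 genes named from this list by smallest p.

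For iron-sulfur cluster assembly, which uses iron in mitochondria, 23 of 24 genes passed the filter. All 3 tools called 0 of them, and the number at an unadjusted p under 0.05 was 0 by edgeR and DESeq2 and 1 by limma-voom. By edgeR 18 had negative and 5 positive log2 fold changes, and the median was -0.09, or -0.02 without control 2. Log2 fold changes were -0.29 for Cisd1 (-0.13 without control 2), -0.27 for Bola3 (-0.17 without cKO 5) and -0.13 for Hspa9. Of 10 heme synthesis genes 0 were called by edgeR or DESeq2, each with 1 at an unadjusted p under 0.05, and 0 by limma-voom. The median for heme synthesis was -0.06 (0.0037 without control 2), and Uros, a heme enzyme, had the smallest p (log2 fold change -0.33, SE 0.140, edgeR adjusted p = 0.472). Fech, which inserts the iron, had 0.09 (0.05 without cKO 5), and the transporter Abcb10 had 0.11 (0.02 without control 2).

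Over the 66 tested genes of these 3 lists together, edgeR called 0 with 6 at an unadjusted p under 0.05, and DESeq2 and limma-voom each called 1, Scara5. Tfrc transcription is also known to respond to low oxygen. Of 14 hypoxia targets 0 were called by edgeR, with 2 at an unadjusted p under 0.05 (2 with DESeq2, which also called 0, and 3 with limma-voom, which called 0), and the median was -0.01, or 0.05 without control 2. The 3 with the smallest p were Ankrd37 (log2 fold change -0.58), Pgk1 (-0.26, or -0.16 without control 2) and the glucose transporter Slc2a1 (0.25, or 0.12 without cKO 1).

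**Figure D4:**
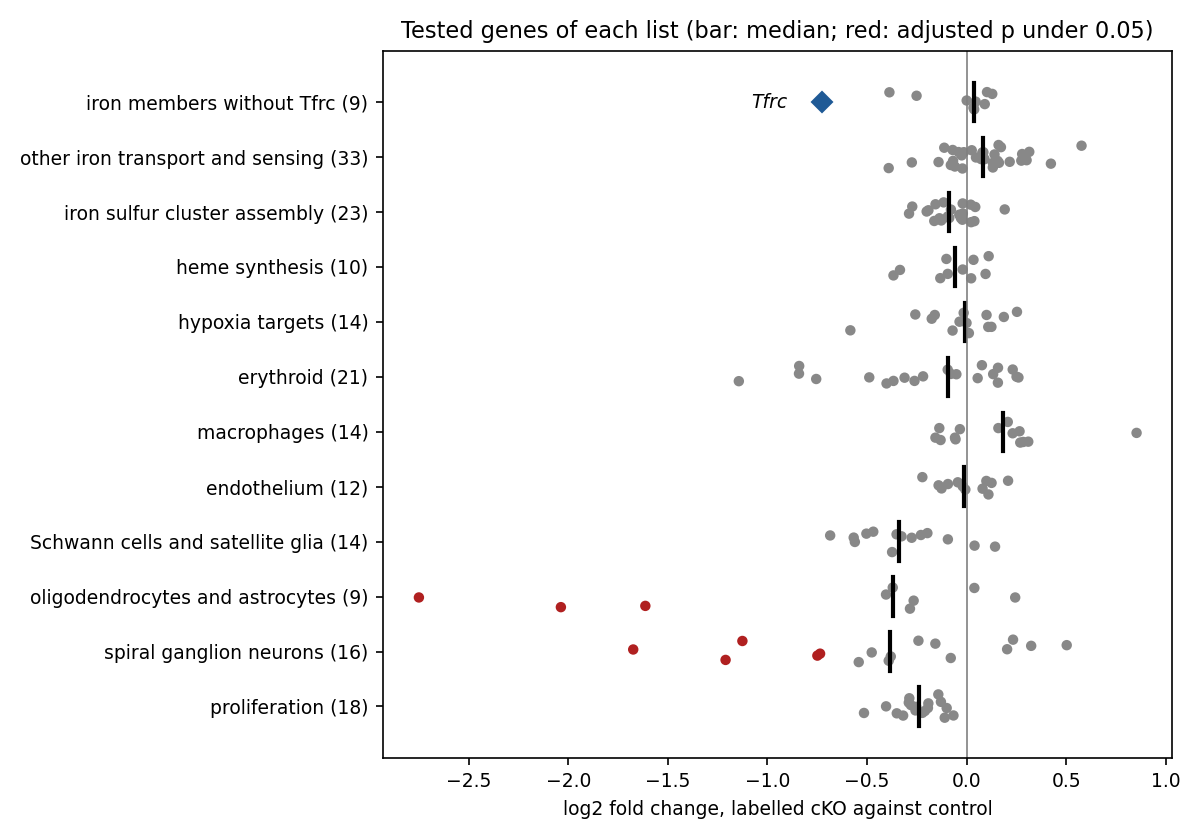
Log2 fold change of each tested gene (points) in 12 lists, with the median as a bar, the number of tested genes in brackets and genes at an edgeR adjusted p under 0.05 in red. Tfrc (diamond) lies below the other 9 iron genes, whose median is 0.04, and red points occur only in the neuron list and the oligodendrocyte and astrocyte list.

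Blood content was read from erythroid genes without Tfrc. Of 30 listed genes 29 were matched and 21 were tested, and 0 were called by edgeR, DESeq2 or limma-voom, each with 1 at an unadjusted p under 0.05. By edgeR, 13 had negative and 8 positive log2 fold changes, and the median was -0.10 on the log2 scale, or -0.02 without control 2 and -0.23 without cKO 1, and 0.03 with limma-voom. Their summed level was 967 to 3203 CPM in controls and 702 to 1599 CPM in the cKO-labelled libraries, so the genotypes overlapped. Several genes of red cell precursors were close to 0 counts: Gata1 and Rhag had 0 to 6, Kel 0 to 5, Hemgn 0 to 8 and Cldn13 0 to 1. Alas2, the heme enzyme of red cell precursors, had 18.7 to 50.6 CPM in controls and 10.9 to 40.4 CPM in the cKO-labelled libraries.

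The globin genes, which persist in young red cells, made up most of that sum. All 4 tested globin genes had negative log2 fold changes, with a median of -0.84 that was -0.49 without control 2, -1.04 without cKO 2 and -0.46 with limma-voom. The values were -1.14 for Hba-a2 (edgeR adjusted p = 0.477), -0.84 for Hbb-bs (adjusted p = 0.579) and -0.84 for Hba-a1 (adjusted p = 0.590), and none passed the test. Without control 2 they were -0.78, -0.46 and -0.52. Reads of the near-identical pair Hba-a1 and Hba-a2, and of Hbb-bs and Hbb-bt, may be split between them by the counting, so their sum is used below.

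Tfrc and globin RNA were then set side by side in each library. In controls 1 to 5 the summed globin level was 1097, 2914, 693, 768 and 2161 CPM, beside 105, 86.3, 95.1, 89.4 and 98.7 CPM of Tfrc. In cKO 1 to 5 it was 840, 1255, 662, 433 and 1068 CPM, beside 58.9, 47.9, 60.6, 60.8 and 58.7 CPM of Tfrc. In each genotype the library with the most globin RNA, number 2, had the least Tfrc. Controls 3 and 4, with globin levels among those of the cKO-labelled libraries, had 95.1 and 89.4 CPM of Tfrc. The highest library exceeded the lowest by 4.20 times in controls and 2.75 times in the cKO-labelled libraries for Hbb-bs, and by 1.21 and 1.27 times for Tfrc.

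**Figure D5:**
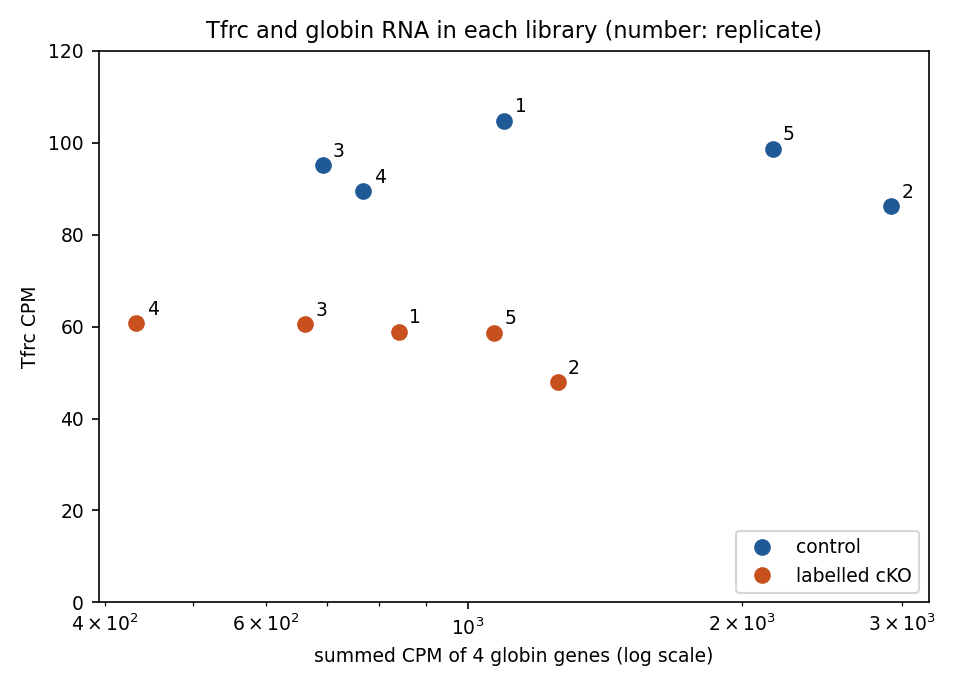
Tfrc CPM (vertical axis, from 0) against the summed CPM of 4 globin genes (horizontal axis, log scale) in each library, numbered by replicate. The controls lie at 86.3 to 105 CPM of Tfrc and the cKO-labelled libraries at 47.9 to 60.8 CPM, over globin levels that overlap between 693 and 1255 CPM.

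Adding the blood measures to the model left the size of the Tfrc difference nearly as it was. The log2 fold change was -0.74 (SE 0.0894) with the erythroid score, the mean log2 CPM of the 21 genes, as a covariate. It was -0.78 (SE 0.0936) with the globin score. With 1 library left out, the value beside the erythroid score ran from -0.79 without control 4 to -0.68 without cKO 2. The proliferation score was added in the same way because all 18 proliferation genes had negative log2 fold changes (median -0.24, -0.36 without cKO 4 and -0.12 without cKO 5), or 17 of 18 with limma-voom. None of the 18 was called by edgeR, DESeq2 or limma-voom, with 2, 2 and 1 at an unadjusted p under 0.05. With that covariate the log2 fold change of Tfrc was -0.74 (SE 0.0938). These values are descriptions, and the part of blood content or proliferation in the Tfrc difference was not tested.

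Within genotypes, Tfrc was compared with 9 cell type or state scores and the 9 other members over the deviations of 10 libraries from their genotype mean. With the erythroid score Pearson r was -0.24 (two-sided permutation p = 0.504, adjusted over 18 relations 0.886) and Spearman rho -0.28 (permutation p = 0.466). With the globins r was -0.44 (permutation p = 0.211, adjusted 0.632) and rho -0.33 (permutation p = 0.394). Leaving out the 2 libraries farthest from the median gave r of -0.14 and -0.35. Both signs were negative, and neither relation passed the threshold.

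Among the members, the relation with the smallest p was that of Tfrc with Ireb2, with r = 0.84 (permutation p = 0.00834, adjusted 0.150) and rho = 0.83 (permutation p = 0.00798, adjusted 0.144). It was 0.52 without control 2 and cKO 2, so its size rests in part on those libraries. With Fth1 r was -0.60 (permutation p = 0.0263, adjusted 0.173) and rho -0.64 (permutation p = 0.0505), and r was -0.80 without control 2 and cKO 1. With Ftl1 r was -0.61 (permutation p = 0.0289, adjusted 0.173, rho -0.36 with permutation p = 0.319), and 0.12 without control 2 and cKO 2, so that relation rests on those libraries. With Trf r was -0.65 (permutation p = 0.0677, rho -0.21 with permutation p = 0.590) and 0.31 without the same 2 libraries. With Steap3 r was -0.61 (permutation p = 0.0738, rho -0.58 with permutation p = 0.109), and -0.81 without control 2 and cKO 3. None of the 18 relations passed after adjustment.

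The 5 genes most like Tfrc by this measure, among 11576 genes with a mean log2 CPM of at least 3, included Polr3b (r = 0.98), Ttc21b (0.97), Sh3d19 (0.97) and Srgap1 (0.97). These are the highest of many correlations over 10 libraries and carry no test. None of the 5 was called between genotypes, and all had positive log2 fold changes, from 0.08 for Polr3b to 0.31 for Srgap1, while Tfrc was lower. Their deviations within genotypes thus ran with Tfrc, and their genotype difference did not.

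Other cell types of the tissue are given because some of their genes did differ. Over all 17937 tested genes edgeR called 0.619%, and 9.65% had an unadjusted p under 0.05. DESeq2 called 307 and limma-voom 424 of them. Of 16 tested spiral ganglion neuron genes, 5 were called lower, among them Calb2, Elavl4, Slc17a7 and Pvalb, with a list median of -0.39. Of the 16, 12 had negative and 4 positive log2 fold changes, the highest 0.50, and 9 had an unadjusted edgeR p under 0.05. The call of Pvalb held in 2 of the 10 leave-one-out fits, with an edgeR adjusted p of 0.128 without control 2, and was lost with the replicate block (adjusted p = 0.0771) and with no filter (adjusted p = 0.255). Of 9 tested oligodendrocyte and astrocyte genes, 3 were called lower: Olig1 (log2 fold change -2.75), Olig2 (-2.04) and Aqp4 (-1.61). Of the 9, 7 had negative and 2 positive log2 fold changes, the highest 0.24, and 5 had an unadjusted edgeR p under 0.05. The defining myelin genes Mog and Mobp of that list had 5 to 19 and 0 to 26 counts and were below the filter. The summed level of the neuron list was 1557 to 1767 CPM in controls and 938 to 1689 CPM in the cKO-labelled libraries. That of the oligodendrocyte and astrocyte list was 514 to 604 and 524 to 661 CPM. Olig1, Olig2 and Aqp4 had means of 7.19, 2.15 and 6.21 CPM in controls and 1.06, 0.520 and 2.02 CPM in the cKO-labelled libraries. The sum of that list thus rests mostly on its other genes and does not show the level of the called ones. Of 14 Schwann cell and satellite glia genes 12 had negative values and 0 were called by edgeR, with 7 at an unadjusted p under 0.05, and DESeq2 and limma-voom each called 2, among them Fabp7. The Schwann cell list had a median of -0.34 and a summed level of 1492 to 1723 CPM in controls and 1055 to 1578 CPM in the cKO-labelled libraries.

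Macrophages recycle red cell iron. Of 14 macrophage genes 0 were called by edgeR, with 3 at an unadjusted p under 0.05 (3 with DESeq2, which called 0, and 3 with limma-voom, which called 1, Mrc1). The macrophage median was 0.18 (0.11 without cKO 1 and 0.23 without cKO 3). The summed level was 381 to 439 CPM in controls and 430 to 538 CPM in the cKO-labelled libraries. The part of these cell types in the Tfrc difference was not tested beyond the relations within genotypes. In those, the scores of neurons, Schwann cells, and oligodendrocytes and astrocytes had r of -0.10, -0.13 and -0.18 with Tfrc (permutation p = 0.758, 0.760 and 0.661).

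The genes around Tfrc were read as a check of the locus. Within 1 Mb on chromosome 16, edgeR tested 30 other genes and called 0, with 1 at an unadjusted p under 0.05. Their log2 fold changes ran from -0.33 to 0.36 with a median of 0.04, so none reached the value of -0.73 at Tfrc. A binding motif of estrogen-related receptors, TNAAGGTCA on either strand, occurred in 421 of 32851 RefSeq promoter windows of 300 bases (1.28%). None of the 14 windows of the 7 members in that table (all but Trf, Slc11a2 and Slc40a1) held these letters.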

How the data were processed

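The authors deposited whole-number counts per Ensembl gene and FPKM values for the same genes. The submitters' processing notes name STAR 2.5, HTSeq 0.61, DESeq2 2 and mm10 without roles, and annotation and use of strand are not given in the sources used here. Deposited FPKM matched GENCODE M21 exon lengths within 1% for 95.7% of 13923 genes, so names and positions came from that annotation on GRCm38 (54495 of 54532 IDs). Among the members, Fth1 alone did not match.

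Counts were filtered with filterByExpr (minimum 10), scaled by TMM and tested with edgeR 4.0.16 (R 4.3.3) by the quasi-likelihood test with robust estimation, 5 libraries against 5, adjusted by Benjamini-Hochberg over 17937 genes. A call is an adjusted p under 0.05. DESeq2 1.42.0 and limma 3.58.1 (voom with quality weights) were alternatives, as were other scalings, filters and thresholds, limma on log2(FPKM + 1 or 0.1), a replicate block and leaving out each library. The test was checked on simulated data. Log2 CPM used a prior count of 2, and correlations used 100000 permutations within genotype. No 2 libraries agreed within sampling noise.

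Members and gene lists were chosen with earlier results of these data known. Named genes are the members, the called genes of each list, up to 3 with the smallest p where a list had none, the 5 most like Tfrc, and Esrrg. Others were chosen after their values were seen. Some genes that this rule names are not reported here. Lists of 10 melanocyte genes (median log2 fold change 0.13), 12 endothelial genes (-0.01), 9 strial marginal cell genes (0.24), 10 hair cell genes (0.02) and 11 supporting cell genes (0.03) had 0 calls by edgeR, with 2, 1, 4, 0 and 2 at an unadjusted p under 0.05. For those lists DESeq2 called 1, 0, 0, 0 and 0 and limma-voom 1, 0, 0, 0 and 1.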

Additional observations from a re-analysis of the deposited data

Results flagged for a closer look

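Dixon's test at the 95% level was applied to 26 measures within each genotype, which makes 52 groups of 5 libraries. Chance flags about 1 in 20 such groups, here 2.6. There were 6 cases, and 5 of these were control 2, so they are not separate events. Control 2 was high for Trf (6.80 CPM, others 3.56 to 4.22), for Fth1 (854 CPM, others 497 to 538) and for Ftl1 (686 CPM, others 419 to 466). It was low for Slc11a2 (40.7 CPM, others 46.3 to 48.4) and for Cp (145 CPM, others 187 to 203). The library cKO 2 was low for Tfrc (47.9 CPM, others 58.7 to 60.8).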

How the results depend on the processing

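The log2 fold change of Tfrc kept its sign in every fit run, and with the replicate block it was -0.73. The replicate numbers are not stated to pair animals. Deviations of libraries with the same number, 1 to 5, correlated across genes at 0.087, 0.177, 0.099, 0.021 and 0.179. The highest correlation of each control with a cKO-labelled library of another number was 0.109, 0.149, 0.047, 0.171 and 0.0044. The same-number value was thus the higher for numbers 2, 3 and 5 and the lower for 1 and 4, and a shared origin was not tested. With the block 101 genes were called in place of 111, and 0 of the other 9 iron genes. The count of all calls was 307 with DESeq2, 424 with limma-voom, 48 at an adjusted p under 0.01, and 52 (without control 3) to 197 (without control 2) with 1 library left out. The number of other iron members called was 1 with limma-voom, and that of other iron pathway genes 1 with DESeq2 and 1 with limma-voom. Both counts were 0 in every other fit for which calls were counted, and that of erythroid genes was 0 in all of them. Calls were not counted in the fits with a score as a covariate.

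Signs turned for Ftl1, Ireb2, Slc11a2, Steap3 and Tfr2 among the members. The turned values lay near 0 except for Ftl1, which reached 0.14 without control 2, and the cause was not tested. With limma-voom Tfr2 was at -0.0013 and Slc11a2 at -0.0029. Ftl1 was at 0.0022 with DESeq2 size factors and with DESeq2, 0.0069 with no filter, 0.021 with the replicate block, 0.10 with limma-voom and 0.025 with either FPKM pseudocount. With 1 library left out, Ftl1 ran from -0.054 to 0.14, Slc11a2 from -0.011 to 0.061, Ireb2 from -0.022 to 0.11 and Steap3 from -0.013 to 0.089. Depth limits Tfr2, with at most 72 counts per library, and the erythroid genes near 0 counts.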
